A study of Mus musculus with 6 samples.

Results

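The genes described here encode nuclear subunits of respiratory complexes II, III, IV and V and the electron carrier cytochrome c, measured in hind limb skeletal muscle of mice deficient in the laminin alpha 2 chain and of wild type mice. They were taken as all probe sets with exactly 1 gene symbol that began with Sdha to Sdhd, Uqcr, Cyc1, Cycs, Cox4 to Cox8 or Atp5, and each gene was read by its probe set with the highest mean signal over the 6 samples. That rule gave 48 genes on 96 probe sets, of 18193 genes with such a probe set, and 47 of the 48 were bright enough to be tested. The testis isoform gene Cox7b2, with a mean signal of 3.67, was the one left out. No probe set with exactly 1 symbol was assigned to Cox7b, so that complex IV gene is absent here. Of the 48, 4 belonged to complex II, 9 to complex III, 1 was Cycs, 16 to complex IV and 17 to complex V. The last, Cox7a2l, matched by its name and encodes a protein known for joining complexes III and IV into supercomplexes rather than a core subunit. All symbols are those of the array annotation, and the Atp5 genes have later names (Atp5g1 is now Atp5mc1).

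Both groups were 4 weeks old, with 3 mice each: laminin alpha 2 chain deficient mice and wild type mice. The labels name neither the allele nor the strain. All hind limb muscles of an animal formed 1 sample, and 1 Affymetrix array was run per mouse. The laminin alpha 2 chain is the subunit of the main laminin of the muscle basement membrane, and its loss causes a congenital muscular dystrophy.

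Complexes III and IV and cytochrome c pass electrons from ubiquinol to oxygen, and complex II feeds electrons from succinate into the same pool while serving as an enzyme of the tricarboxylic acid cycle. Complexes III and IV pump protons across the inner mitochondrial membrane, and complex V, the ATP synthase, uses their return to make ATP. Muscle fibres are rich in these complexes, and complex IV contains subunits that exist as a heart and skeletal muscle isoform and as a ubiquitous one. The subunits encoded by mitochondrial DNA were not analysed here.

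Signals are linear, and the median signal of an array ranged from 20 to 26.1. With 3 arrays in a group, the array number sets the precision. Group means carry their SD (n = 3 each). A log2 fold change is the deficient mean minus the wild type mean of log2(signal + 16). Adjusted p-values come from limma with Benjamini-Hochberg adjustment over the 13104 genes tested, and a gene below 0.05 counts as called. Lama2, the gene of the missing chain, read 82, 31.1 and 140.4 in the deficient libraries 1, 2 and 3, against 428.7, 415.6 and 326.2 in the wild type libraries. The 8 skeletal muscle fibre markers, among them Acta1 and Ckm, summed to between 71792 and 98518 in deficient libraries, against 99002 to 101801 in wild type libraries. The Y-linked gene Eif2s3y read 414.6, 573.7 and 9.1 in deficient libraries 1 to 3 and 474.1, 466.8 and 10.7 in wild type libraries 1 to 3, so that each group held 2 libraries with Y-linked transcripts and 1 without. Wild type libraries 1 and 2 carried hair follicle genes, with sums over 6 markers of 2064 and 803.9 against 70.4 in wild type library 3, while the deficient libraries lay between 26.9 and 39.6.

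The nuclear genes of complexes II to V had lower mean levels in deficient muscle in 44 of 47 cases, and few passed the test individually. Their median log2 fold change was -0.35 over the 47 tested, against 0.024 over all genes tested, and 47.4% of all genes tested had a negative fold change. In 35 of the 47 every deficient library lay below every wild type library, a pattern found in 12.4% of all genes tested, and in 0 of the 47 did every deficient library lie above, against 12.3% of all genes tested. Of the 47, 3 passed the test as lower, Cox7a1, Atp5g1 and Sdhb, against 1.44% of all genes tested that were called lower, and 0 passed as higher, against 1.25%. In either direction 2.69% of all genes tested were called. At an unadjusted p under 0.05, 27 of the 47 were lower, against 9.49% of all genes tested.

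**Figure D1:**
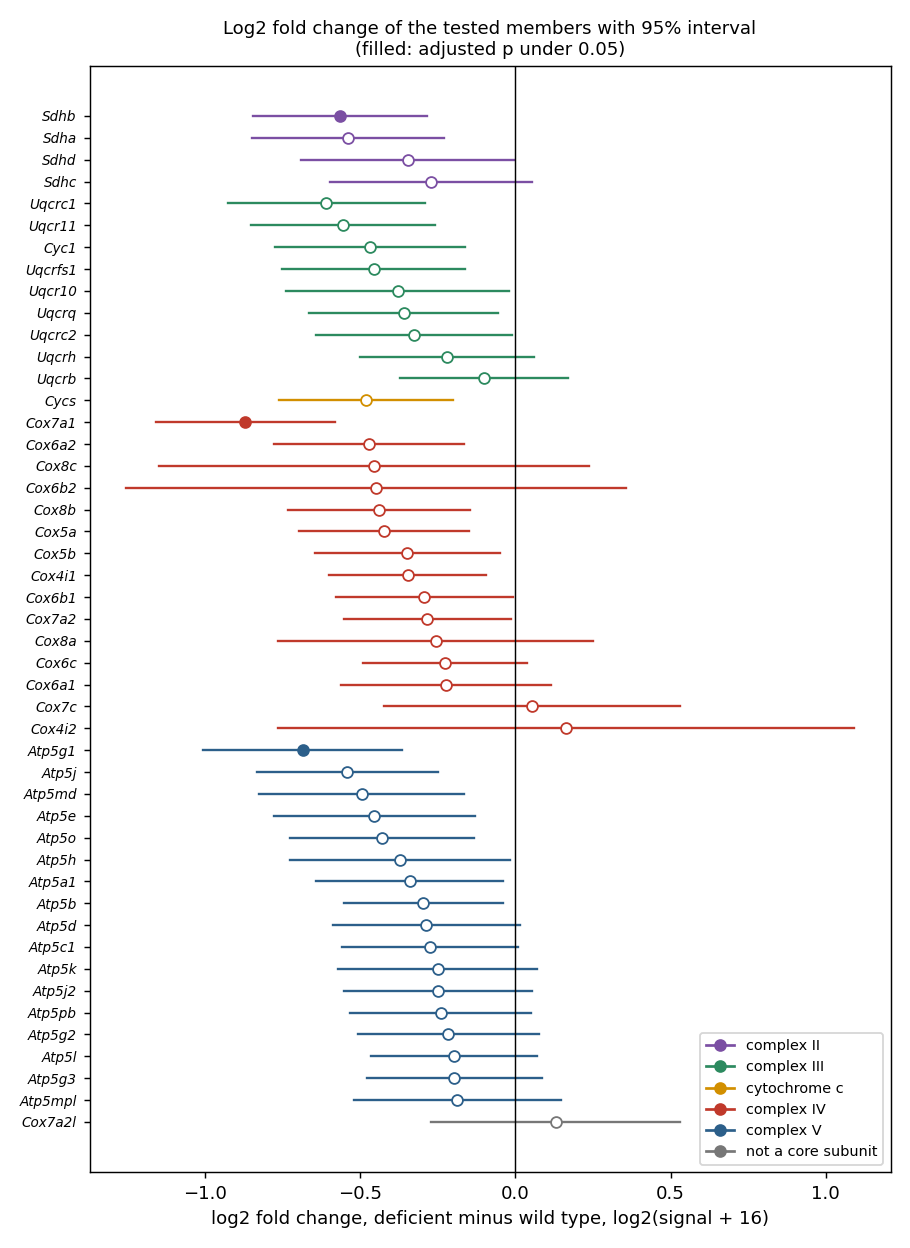
Log2 fold change of each of the 47 tested genes (deficient minus wild type, x axis) with its 95% interval from limma, grouped by complex, with filled points for an adjusted p under 0.05. The filled points are Sdhb, Cox7a1 and Atp5g1, and 3 genes lie right of zero, Cox7c, Cox4i2 and Cox7a2l.

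Most of these genes are among the brightest on the array, and the bright genes as a whole had a negative median fold change. Among the 889 tested genes with a mean signal of 1000 or more, the median log2 fold change was -0.15, and 33.5% had every deficient library below every wild type library. The 42 respiratory genes at that brightness had a median of -0.35, and 35 of them (83.3%) had non-overlapping groups in that direction. Of the 889 genes, 7.09% were called lower, and 3 of the 42 respiratory genes were. Across the 42 genes, signal and fold change had a Pearson's r of -0.0080 (log2 signal; Spearman's rho 0.16), a description over genes that share the same 6 libraries.

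**Figure D2:**
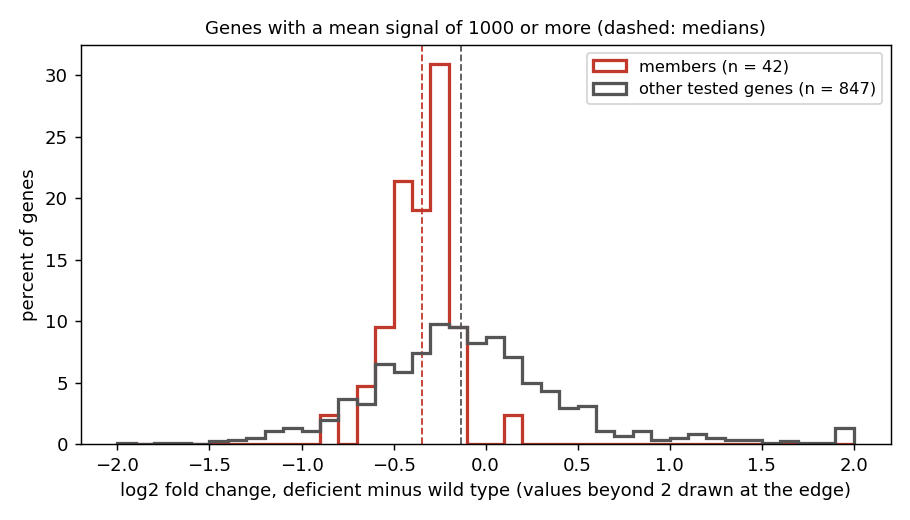
Distribution of log2 fold changes (deficient minus wild type, x axis) as percent of genes (y axis) for the 42 respiratory genes and the other 847 tested genes with a mean signal of 1000 or more, with medians as dashed lines. The respiratory genes form a narrow peak with a median of -0.35, within the wider spread of the other genes, whose median was -0.13.

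The deficient libraries differed in how far these genes lay below wild type. The median over the 47 genes, relative to the wild type mean of each gene on the log2 scale, was -0.46, -0.22 and -0.34 in deficient libraries 1, 2 and 3, against 0.044, -0.017 and -0.026 in wild type libraries 1, 2 and 3. Deficient library 1 held the lowest deficient value for 32 of the 47 genes, library 3 for 13 and library 2 for 2. The array maximum was 12492, 16326 and 15681 in deficient libraries 1, 2 and 3, against 15502 to 16138 in wild type libraries. Deficient library 1 also had the lowest array median, 20. Over all genes tested, the median relative to wild type was -0.0037, 0.063 and -0.00050 in deficient libraries 1, 2 and 3. The part of these array differences in the order was not tested. In deficient library 2, 36 of the 47 genes were below all wild type libraries, and in libraries 1 and 3, 43 each were. The matching shares of single libraries over all genes tested were not computed.

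Other signals also differed between the groups or among the deficient libraries. The muscle fibre markers ran in the same order over the deficient libraries as the respiratory genes, and the slow fibre and macrophage sums in other orders. The median of the 8 muscle fibre markers was -0.49, -0.035 and -0.13 in deficient libraries 1, 2 and 3 and between -0.019 and 0.020 in wild type libraries. These markers were Acta1, Ckm, Tnnt3, Myh1, Myh4, Mylpf, Actn3 and Pvalb, none of them from the slow fibre list. Some read near the array maximum, Acta1 among them with 10629.3, 15099.6 and 13059.7 in deficient libraries 1, 2 and 3. The summed signal of 6 slow fibre markers was 8549, 13625 and 15425 in deficient libraries 1, 2 and 3, against 5996 to 8699 in wild type libraries, and the slow troponin I gene Tnni1 was called higher (adjusted p = 0.0197). The summed signal of 8 macrophage markers was 9291, 6809 and 3248 in deficient libraries 1, 2 and 3, against 2225 to 3248 in wild type libraries, and the marker Mpeg1 was called higher (adjusted p = 0.00234). Mpeg1 read 1239.5, 865.4 and 525.5 in deficient libraries, against 111.8, 117.5 and 92.7 in wild type libraries. The actin control, read at its 5 prime and 3 prime ends, had 5 prime over 3 prime ratios of 0.819, 0.510 and 0.573 in deficient libraries and 1.15, 1.05 and 1.04 in wild type libraries, while the ratios of the Gapdh control overlapped between the groups. The part of these signals in the result was not tested, and in whole muscle fewer fibres and less RNA per fibre cannot be told apart.

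**Figure D3:**
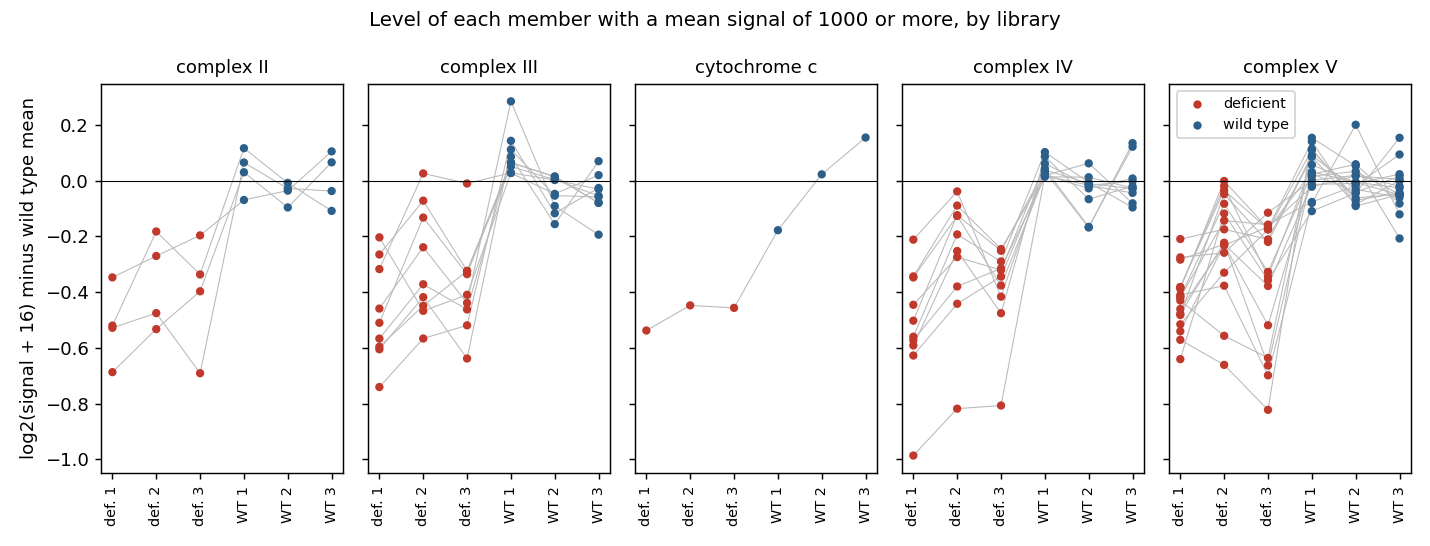
Level of each respiratory gene with a mean signal of 1000 or more in each library, as log2(signal + 16) minus the wild type mean of the gene (y axis), by complex, with grey lines joining the values of 1 gene. Deficient library 1 lies lowest for most genes, and Cox7a1 is the separate lowest line of complex IV. The wild type values centre on zero by construction, since their mean was subtracted.

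Complex II, succinate dehydrogenase, had a median log2 fold change of -0.44 over its 4 genes, and all 4 had every deficient library below every wild type library. That pattern was found in 12.4% of all genes tested and in 33.5% of those with a mean signal of 1000 or more. Sdhb, the iron-sulfur subunit, fell to 3866 ± 297 in deficient muscle, against 5716 ± 227 in wild type muscle (log2 fold change -0.56, SE 0.125, adjusted p = 0.0470). Its libraries read 3957.9, 4105.8 and 3533.8 in deficient muscle and 5977.9, 5602.9 and 5567.6 in wild type muscle, so the groups lay well apart. The call was lost with any 1 of the 6 libraries left out, with adjusted p from 0.0610 to 0.184, and in 10 of 15 other settings in all, median centring, quantile normalization, no filter and no intensity trend among them. Sdha, the flavoprotein that oxidises succinate, read 2358.5, 2626.6 and 2887.1 in deficient libraries and 3887, 3560.2 and 3984.3 in wild type libraries (log2 fold change -0.54, adjusted p = 0.0735).

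The membrane anchors of complex II had smaller fold changes. Sdhd read 1541.8, 1952.5 and 1752.9 in deficient libraries, against 2405.2, 2205 and 2055.8 in wild type libraries (log2 fold change -0.35, adjusted p = 0.260). Sdhc had the smallest fold change of the complex, with 1346.2, 1420.8 and 1496.3 in deficient libraries, against 1635.4, 1674.1 and 1847.5 in wild type libraries (log2 fold change -0.27, adjusted p = 0.348). Neither anchor gene overlapped between the groups, and neither passed the test.

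The 9 genes of complex III, the cytochrome bc1 complex, had a median log2 fold change of -0.38, and 0 passed the test by limma, with 7 lower at an unadjusted p under 0.05. In 7 of the 9 every deficient library lay below every wild type library. This held for 12.4% of all genes tested and for 33.5% of those with a mean signal of 1000 or more. The core protein gene Uqcrc1 had the largest fold change, with 2121.1, 2395.2 and 2475.5 in deficient libraries, against 3926.1, 3276 and 3490 in wild type libraries (log2 fold change -0.61, adjusted p = 0.0572). Next were Uqcr11, a small subunit (-0.55, adjusted p = 0.0624), Cyc1 and the Rieske iron-sulfur protein gene Uqcrfs1 (-0.46, adjusted p = 0.102). Cyc1, which encodes the cytochrome c1 that hands electrons to cytochrome c, read 2789.6, 3195.5 and 3000.6 in deficient libraries, against 4393.6, 3713.3 and 4345.6 in wild type libraries (log2 fold change -0.47, adjusted p = 0.104). The groups stood apart in each of these 4 genes.

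At the other end of complex III stood Uqcrb, a subunit near the ubiquinone site, read by the brightest probe set of all 48 genes. It read 10252.3, 13010 and 12686.8 in deficient libraries, against 13029.7, 12798.4 and 12508 in wild type libraries (log2 fold change -0.10, adjusted p = 0.703). The groups overlapped, and these signals lay near the array maxima of 12492 to 16326. The other probe set of Uqcrb, at a mean signal of 3348, read 2845.1, 2729.4 and 2497.3 in deficient libraries and 3899.5, 4311.7 and 3807.8 in wild type libraries, a log2 fold change of -0.57 with no overlap. The hinge protein gene Uqcrh overlapped as well (-0.22, adjusted p = 0.376).

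Cycs encodes somatic cytochrome c, which carries electrons from complex III to complex IV and is also known for triggering apoptosis when released. It read 5864, 6243.1 and 6204.2 in deficient libraries, against 7529.6, 8654.3 and 9484.5 in wild type libraries (log2 fold change -0.48, SE 0.125, adjusted p = 0.0764). The deficient libraries were close together and all below the wild type libraries. Its probe sets at mean signals of 6048 and 3959 gave log2 fold changes of -0.56 and -0.65.

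Complex IV, cytochrome c oxidase, held the largest fall among all 47 genes. Cox7a1, the heart and skeletal muscle isoform of subunit 7a, fell to 2414 ± 166 in deficient muscle, against 4418 ± 54.1 in wild type muscle, or 54.6% of the wild type mean (log2 fold change -0.87, SE 0.129, adjusted p = 0.0118). Its libraries read 2222.6, 2499.2 and 2519 in deficient muscle and 4474.9, 4367.4 and 4411.3 in wild type muscle, with little spread within either group. The call was lost without wild type replicate 1 (adjusted p = 0.0753), without wild type replicate 2 (adjusted p = 0.0681), and without the intensity trend (adjusted p = 0.0579), while the fold change stayed between -0.90 and -0.81 with any 1 library left out.

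Of the 15 tested genes of complex IV, 1 was called lower, 0 higher and 14 did not pass, with a median log2 fold change of -0.35. The structural subunits Cox5a and Cox5b had log2 fold changes of -0.42 and -0.35, Cox6b1 of -0.29 and Cox6c of -0.23, none of them called and none overlapping between the groups. Cox7c was read only dimly, with 84.1, 53.1 and 63.6 in deficient libraries and 70.8, 62.3 and 56.3 in wild type libraries (log2 fold change 0.055, adjusted p = 0.922). The groups overlapped, and this signal was far below that of the other structural subunits. Cox6b2 and Cox8c, genes known as testis isoforms, had mean signals of 31.3 and 45.7, and their groups overlapped.

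The muscle isoforms of subunits 6a, 7a and 8 were set against their ubiquitous counterparts. Cox6a2, the muscle isoform of subunit 6a, read 4477.3, 5094 and 5451.7 in deficient libraries, against 7084.7, 6161.1 and 7603.6 in wild type libraries (log2 fold change -0.47, adjusted p = 0.102). Cox6a1, the ubiquitous isoform, read 3285.3, 3706 and 2849 in deficient libraries, against 3924.5, 3391.6 and 4143.3 in wild type libraries (log2 fold change -0.22, adjusted p = 0.464). The groups stood apart for the muscle isoform and overlapped for the ubiquitous one.

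Cox7a2, the ubiquitous partner of Cox7a1, read 7080.8, 8253.6 and 6940.1 in deficient libraries, against 9130.5, 9409.5 and 8518.3 in wild type libraries (log2 fold change -0.28, adjusted p = 0.238). Cox8b, the muscle isoform of subunit 8, read 4858.3, 6147.8 and 5265.3 in deficient libraries, against 7780, 6996.4 and 7223.5 in wild type libraries (log2 fold change -0.44, adjusted p = 0.108). Neither gene overlapped between the groups. Cox8a, the ubiquitous isoform, read 750.8, 616.1 and 428.6 in deficient libraries, against 765.2, 596 and 752.8 in wild type libraries, and its groups overlapped (log2 fold change -0.26, adjusted p = 0.584).

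**Figure D4:**
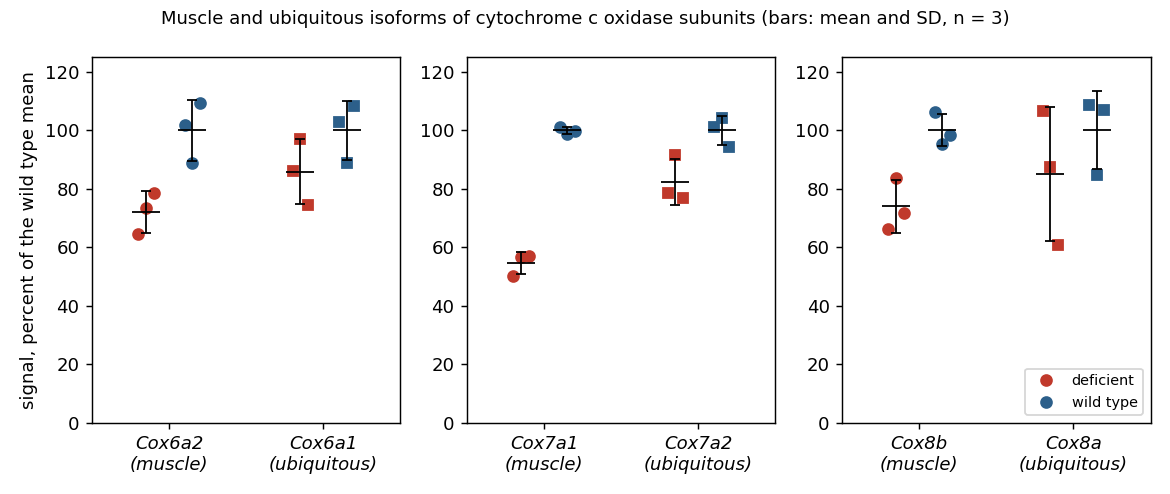
Signal of the muscle and the ubiquitous isoform of subunits 6a, 7a and 8 as percent of the wild type mean of each gene (y axis), deficient libraries left of wild type libraries, with mean and SD (n = 3). Cox7a1 stands at 54.6% and Cox7a2 at 82.3% of wild type, and the deficient values of Cox6a1 and Cox8a reach into the wild type range.

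To compare the isoforms of a pair, the log2 ratio of muscle over ubiquitous isoform was taken within each array and its shift between the groups tested by an exact two-sided permutation test over the 6 libraries. The ratio of Cox7a1 to Cox7a2 shifted by -0.59, and its values relative to the wild type mean were -0.64, -0.69 and -0.43 in deficient libraries, against -0.00, -0.079 and 0.079 in wild type libraries. The groups did not overlap, and p = 0.1 in the exact test, the smallest that 3 against 3 samples allow, or 0.3 adjusted over the 3 pairs. Read against the other probe set of Cox7a2, the shift was -0.27 and the groups overlapped (exact p = 0.3).

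The ratio of Cox6a2 to Cox6a1 shifted by -0.25 (exact permutation p = 0.4, adjusted p = 0.6), with deficient values of -0.42, -0.40 and 0.072 and wild type values between -0.011 and 0.013. That of Cox8b to Cox8a shifted by -0.18 (exact permutation p = 0.8, adjusted p = 0.8), with deficient values of -0.69, -0.072 and 0.21 against -0.039, 0.16 and -0.12 in wild type libraries. In both pairs the groups overlapped. The Cox6a2 shift was -0.41 without deficient replicate 3 (exact permutation p = 0.1), -0.17 without deficient replicate 1 and -0.17 without deficient replicate 2 (exact permutation p = 0.6 for each). The Cox8b shift was 0.070 without deficient replicate 1 and -0.38 without deficient replicate 3. A ratio of this kind shows unequal change of 2 transcripts and does not set their levels against each other.

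Cox4i1, the ubiquitous isoform of subunit 4, read 6149.7, 6926.6 and 6705.2 in deficient libraries, against 8744.2, 8276.9 and 8128.1 in wild type libraries (log2 fold change -0.35, adjusted p = 0.138). The lung isoform Cox4i2 was near the dim end of the tested range, with 3.4, 34.8 and 23.3 in deficient libraries and 18.1, 4.2 and 24 in wild type libraries, and the groups overlapped. Cox7a2l, the supercomplex factor, read 1079.4, 1460.4 and 1280.9 in deficient libraries, against 1331.5, 1014.1 and 1137.5 in wild type libraries (log2 fold change 0.13, adjusted p = 0.747). It was the only gene of the 42 with a mean signal of 1000 or more whose fold change was positive, and its groups overlapped.

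Cox7a1 and Cox8b are also known as genes of brown adipocytes, and brown adipocyte transcripts differed between the groups. Ucp1, which defines that cell type, read 43.8, 12.7 and 43.7 in deficient libraries, against 1033.4, 356.7 and 1481.2 in wild type libraries, and the sum of 8 such markers was 596 to 666 in deficient and 1108 to 2872 in wild type libraries. Of the 7 markers tested, Ucp1 and Cidea were called lower, Dio2 was called higher and 4 did not pass. The part of brown adipocytes in the difference between the groups was not tested.

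The 17 genes of complex V had a median log2 fold change of -0.29, all 17 negative, and in 14 every deficient library lay below every wild type library. Such non-overlap was found in 12.4% of all genes tested and in 33.5% of those with a mean signal of 1000 or more. Of the 17, 1 was called lower, 0 higher and 16 did not pass. Subunit c, which forms the rotating ring of the membrane part, is encoded by 3 genes known to yield the same mature protein. The called gene was one of them, Atp5g1, which fell to 3783 ± 331 in deficient muscle, against 6108 ± 769 in wild type muscle (log2 fold change -0.68, SE 0.143, adjusted p = 0.0394). Its libraries read 4084.1, 3836.6 and 3428.9 in deficient muscle and 6760.3, 6303.7 and 5259.5 in wild type muscle, with no overlap. With 1 library left out the adjusted p of Atp5g1 lay between 0.0458 and 0.165, and the call held only without wild type replicate 3. In all it was lost in 9 of 15 other settings, the same 4 of scaling, filter and trend as for Sdhb among them.

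The other 2 genes of subunit c had smaller fold changes. Atp5g2 read 2574.2, 2604 and 2878.5 in deficient libraries, against 3120.7, 3160.5 and 3074.8 in wild type libraries (log2 fold change -0.22, adjusted p = 0.405). Atp5g3, the brightest of the 3, read 6041, 7688.8 and 6979.3 in deficient libraries, against 8048.6, 7846.3 and 7731.5 in wild type libraries (log2 fold change -0.20, adjusted p = 0.434). Neither overlapped between the groups. Within arrays the log2 ratio of Atp5g1 to Atp5g3 was -0.19, -0.63 and -0.65 in deficient libraries relative to the wild type mean, and 0.12, 0.058 and -0.18 in wild type libraries. The ratio to Atp5g2 was -0.30, -0.40 and -0.71 in deficient libraries and 0.15, 0.034 and -0.19 in wild type libraries. These ratios were chosen after the values were seen and were given no test.

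Promoter sequences from RefSeq (GRCm38.p6, 250 bases before to 50 after the start) were found for 36 of the 48 genes, 35 of them subunit or cytochrome c genes. Nuclear respiratory factor 1, estrogen-related receptors and ETS family factors are known regulators of such genes. The exact palindromic NRF1 motif, which stands in capitals in the Atp5g2 sequence, was found in 11.4% of the 35 and 1.07% of all 27025 genes with a promoter, and in 3.11% of the tested genes with a mean signal of 1000 or more. The same motif with its sixth base free, which contains the exact one, was found in 28.6% of the 35, in 5.19% of all genes and in 13.9% of the bright ones. The ETS motif CCGGAAG was found in 37.1%, 9.93% and 18.5% of the same groups, the YY1 motif AAGATGGCG in 5.71%, 1.64% and 4.05%, and the estrogen-related receptor motif TCAAGGTCA in 5.71%, 0.466% and 0.811%. The 11.4% of the exact NRF1 motif stands for 4 genes, and each 5.71% for 2 genes. For the estrogen-related receptor motif, the 0.811% stands for 6 of 740 bright genes. Both strands were searched, and a match is a description of the letters only.

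For the subunit 7a pair and the 3 genes of subunit c, on which the comparisons within gene sets rest, the 100 bases before the transcript start of the RefSeq promoter table are shown. That start is the outer end of the annotated gene for Cox7a1 and Atp5g2 and lies inside the annotated gene for Cox7a2, Atp5g1 and Atp5g3, whose annotation begins further upstream. Sequences run 5′ to 3′ on the strand of the gene, with capitals for a match to one of the motifs above.
Cox7a1, chr7:30184071-30184170, plus strand: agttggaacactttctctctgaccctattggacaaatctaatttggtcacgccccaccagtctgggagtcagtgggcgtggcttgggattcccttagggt
Cox7a2, chr9:79759854-79759953, minus strand: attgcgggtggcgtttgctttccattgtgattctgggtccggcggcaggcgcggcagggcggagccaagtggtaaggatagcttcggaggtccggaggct
Atp5g1, chr11:96075632-96075731, minus strand: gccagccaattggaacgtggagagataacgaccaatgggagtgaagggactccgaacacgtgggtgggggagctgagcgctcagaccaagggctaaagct
Atp5g2, chr15:102671048-102671147, minus strand: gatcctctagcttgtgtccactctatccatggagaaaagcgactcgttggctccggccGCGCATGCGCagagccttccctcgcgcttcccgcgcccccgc
Atp5g3, chr2:73911327-73911426, minus strand: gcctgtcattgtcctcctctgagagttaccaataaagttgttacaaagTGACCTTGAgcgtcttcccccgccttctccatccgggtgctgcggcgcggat
Atp5g2 held the exact NRF1 motif and Atp5g3 the estrogen-related receptor motif on the opposite strand. None of the 5 motifs was found in these stretches of Cox7a1, Cox7a2 and Atp5g1. The full window of Sdhb, which was called, held the ETS motif, and that of Uqcrc1, which was not called, held the exact NRF1 motif.

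None of the genes of the other parts of the ATP synthase passed the test. The 5 genes of the catalytic F1 head and its central stalk had a median log2 fold change of -0.30. Their values ran from -0.45 for the epsilon subunit gene Atp5e to -0.28 for the gamma subunit gene Atp5c1. All 5 had every deficient library below every wild type library, against 33.5% of tested genes with a mean signal of 1000 or more. The catalytic beta subunit gene Atp5b stood at 5419 ± 283 in deficient and 6653 ± 94.0 in wild type muscle (log2 fold change -0.30, adjusted p = 0.199). The 4 genes of the peripheral stalk, which holds the head still while the ring turns, had a median of -0.40, and Atp5j, the gene of coupling factor 6, had the largest fold change of that group (-0.54, adjusted p = 0.0629). Of the 5 genes of other membrane and small associated subunits, 3 overlapped between the groups, Atp5j2, Atp5k and Atp5mpl. Atp5mpl had the smallest fold change of the complex, with 2891, 3784.3 and 3362.2 in deficient libraries and 4176.6, 3554.9 and 3659.2 in wild type libraries (log2 fold change -0.19, adjusted p = 0.536).

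Mice with and without Y-linked transcripts were present in both groups at 2 to 1, and a fit with that difference as a block called more genes. In that fit 10 of the 47 were lower and 0 higher, among them the 3 called without it, while all genes called lower numbered 602. The added genes were Uqcrc1, Uqcr11, Atp5j, Sdha, Cycs, Atp5md and Cox6a2, with adjusted p from 0.0221 to 0.0395. The fold changes were the same as without the block, since the groups are balanced in it.

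Several genes were read by more than 1 probe set, and their fold changes mostly had the same sign. Of 72 probe sets of these genes with a mean signal of 500 or more, 68 had a negative log2 fold change and 56 had every deficient library below every wild type library. The 4 exceptions in sign were the 3 probe sets of Cox7a2l and 1 of Cox6c. The matching shares over all probe sets of that signal were not computed, and probe sets of the same gene are not independent. For 22 genes with several such probe sets, the dimmest gave the lower fold change in 13, with a median of -0.36 over the dimmest and -0.29 over the brightest. Uqcr10, a small complex III subunit, differed most. Its brightest probe set gave -0.38, and its dimmest read 537.4, 773.4 and 500.1 in deficient libraries, against 1629.3, 1139.6 and 1195.1 in wild type libraries, a log2 fold change of -1.12. A limma fit over all probe sets kept gave this dimmest set an adjusted p of 0.0412. The Cycs probe set at a mean signal of 3959 had 0.0395 in that fit. There Cox7a1 passed (adjusted p = 0.0180), while Sdhb (adjusted p = 0.0640) and Atp5g1 (adjusted p = 0.0516) did not.

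**Figure D5:**
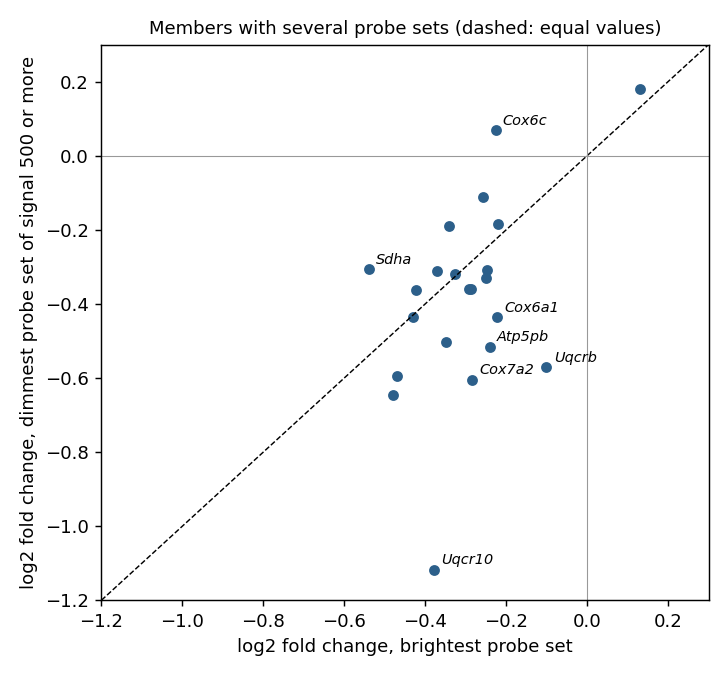
Log2 fold change (deficient minus wild type) of the brightest probe set (x axis) against the dimmest probe set with a mean signal of 500 or more (y axis) for the 22 genes with several such probe sets, with equal values on the dashed line. Uqcr10, Uqcrb, Cox7a2, Atp5pb and Cox6a1 lie well below the line, and Sdha and Cox6c lie above it.

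Other mitochondrial genes give the setting of these values. Of 37 assembly, maturation and regulatory factors of complexes II to V, 33 were tested, with a median log2 fold change of -0.48. Among them 2 were called lower, against 1.44% of all genes tested, 0 higher and 31 did not pass. Cox11, which helps to insert copper into complex IV, fell to 229.6, 236.5 and 254.8 in deficient libraries, against 464.1, 475.1 and 451.8 in wild type libraries (log2 fold change -0.91, adjusted p = 0.0259). Uqcc1, a complex III assembly factor, fell to 185.1, 215.7 and 156.2 in deficient libraries, against 338.4, 341.4 and 341.9 in wild type libraries (log2 fold change -0.83, adjusted p = 0.0470). In both genes the groups lay far apart. Every deficient library lay below every wild type library in 17 of the 33 tested factors (51.5%), against 12.4% of all genes tested.

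Complex I feeds electrons from NADH into the chain, and its genes were listed by symbol alone. The list held Ndufa4 and Ndufa4l2, whose symbols do not establish them as complex I subunits, and neither was called. Among the 34 tested, 6 were called lower, against 1.44% of all genes tested, and 0 higher. The other 28 did not pass, and the median was -0.50. In 28 (82.4%) every deficient library lay below every wild type library, against 12.4% of all genes tested. For all genes with a mean signal of 1000 or more these shares were 7.09% and 33.5%. The called genes of the complex I list were Ndufc1 (-0.88), Ndufs5 (-0.77), Ndufv3 (-0.75), Ndufa10 (-0.67), Ndufa12 (-0.66) and Ndufa8 (-0.64), with adjusted p from 0.0137 to 0.0456. Mitochondrial ribosomal protein genes were also listed by symbol alone, which does not establish each of them, Mrps36 among them, as a ribosomal subunit. Of these 76, 4 were called lower, against 1.44% of all genes tested, 0 higher and 72 did not pass. Their median was -0.43. The called ones were Mrps36 (-1.22), Mrpl42 (-1.03), Mrpl14 (-0.98) and Mrps21 (-0.72), with adjusted p from 0.0109 to 0.0456. Of 16 tested genes of the outer membrane, protein import, chaperones and membrane shape, 0 passed by limma, with 4 lower at an unadjusted p under 0.05, and their median was -0.14. The differences between these lists were not tested.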

How the data were processed

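The authors deposited a linear intensity for each of 45101 probe sets on each array. How probes were summarised is not stated here. The trimmed mean (2 to 98 percent) was 100.001 signal units on every array. Per the labels, biotinylated cRNA was made from 1 ug of total RNA prepared with TRIzol followed by RNeasy. Groups and replicate numbers came from the sample titles. Values were taken as log2(signal + 16), and array medians differed by 0.226 at most, so arrays were not rescaled. There were 64 control probe sets, left out here, and 34945 with 1 symbol. Probe sets with a mean signal below 15.0, the 40th percentile, were dropped, and the brightest of those kept stood for its gene. The 13104 genes were fitted with limma 3.58.1 in R 4.3.3 (eBayes with trend, two-sided tests, Benjamini-Hochberg adjustment). The 48 respiratory genes matched RefSeq genes of GRCm38.p6 by Entrez identifier. Of the brightest probe sets of the 47 tested genes, 8 carried the suffix _s and 3 the suffix _x, which mark probes that may match several transcripts.

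Each of the 3 called respiratory genes and both members of each isoform pair were given with all samples, as were the genes of subunit c, Sdha to Sdhd, Cyc1, Cycs and the largest and smallest fold change of each complex. The members, lists and tests were chosen with earlier results of these data known. The fit was checked on simulated data. Alternatives were median centring, quantile normalization, pseudocounts of 1 and 64, no filter, the mean over probe sets, no trend, the replicate number or Y-linked transcripts (Eif2s3y signal above 100) as a block, fits that omit single libraries, and a comparison that omits wild type libraries 1 and 2. Reading each other probe set was added after seeing the data.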

Additional observations from a re-analysis of the deposited data

How the results depend on the processing

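The direction of the medians of all 47 genes and of each complex held under all alternatives run, and between 43 and 45 of the 47 genes had a negative fold change, not always the same ones. The number of these genes called lower did not hold. It was 3, and became 2 under median centring, 1 under quantile normalization and without the filter, 0 without the intensity trend, 6 with the replicate block and 10 with the Y-linked block. With 1 library left out it ran from 0 to 3, with 0 without wild type replicate 1 or 2, and 1 without deficient replicate 1 or 2. Of all genes, 189 were called lower and 164 higher. These counts were 110 and 106 without the filter, 73 and 86 without the trend, 435 and 420 with the replicate block, 602 and 542 with the Y-linked block, and 153 and 100 under median centring. With 1 library left out they ran from 26 to 279 lower and from 33 to 397 higher, lowest for lower calls when wild type replicate 1 was omitted and for higher calls when deficient replicate 2 was. The cause was not tested.

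Under quantile normalization the median of the 47 genes was -0.25, that of complex II -0.32 and that of complex III -0.24. With the mean over probe sets the medians of complexes II and III were -0.31 and -0.46. Without wild type replicates 1 and 2, the libraries with hair follicle genes, the median of the 47 genes was -0.33 and Cycs had -0.64. With 1 library left out the medians ran from -0.38 to -0.25 for the 47 genes, from -0.48 to -0.36 for complex II, from -0.45 to -0.35 for complex III and from -0.35 to -0.20 for complex V. The shift of Cox6a2 over Cox6a1 ran from -0.41 without deficient replicate 3 to -0.17 without deficient replicate 1, and that of Cox8b over Cox8a ran from -0.38 to 0.070, with the highest value without deficient replicate 1.

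Signs turned for some weak values. Uqcrb had 0.073 under quantile normalization and -0.16 to 0.0079 with 1 library left out, Cox7c -0.17 with the mean over probe sets and -0.090 to 0.18 with 1 library left out, and Cox4i2 -0.24 without wild type replicates 1 and 2 and -0.13 to 0.56 with 1 library left out. Other probe sets gave 0.080 for Sdha, 0.38 for Uqcrq, 0.13 for Cox5b, 0.069 for Cox6c, -0.39 for Cox7c, 0.095 for Atp5c1 and 0.19 for Atp5g2, all but that of Cox6c at mean signals of 46 or less.

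Deviations of libraries with the same replicate number correlated at 0.15, 0.067 and 0.30, and those with different numbers at -0.29 to 0.20. Replicate 3 was the library without Y-linked transcripts in both groups. These values do not decide whether the numbers pair the mice, and the main fit used no pairing. The Cox7a1 call was lost without the trend (adjusted p = 0.0579). Signals near the array maximum and those under 100 limit what can be read for Uqcrb, Cox7c, Cox4i2, Cox6b2 and Cox8c.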
